A study of Mus musculus with 9 samples.

Results

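The chemokine ligands described here are Ccl2, Ccl3, Ccl4, Ccl5, Ccl6, Ccl9 and Ccl12 of the CC family, Cxcl10 and Cxcl16 of the CXC family, and Cx3cl1 of the CX3C family, 10 of the 19938 genes tested. They are a list of named genes that was drawn up with earlier results of these data known, and each was measured by a probe set that names no other gene; each of the 10 had only 1 such probe set. RNA from mouse brain tissue, cortex according to the series description, was hybridised to 9 arrays, 3 biological replicates for each of 3 groups. The wild-type group was B6SJLF1/J mice that received PBS. The other two groups were 5xFAD mice (genotype label 5x FAD), a model of familial Alzheimer disease whose transgenes are driven by the neuronal Thy1 promoter and which forms amyloid plaques; 1 of these groups received PBS (the vehicle group) and 1 received human amylin, a hormone of the pancreatic beta cell. All mice, wild type included, were injected intraperitoneally every day for 10 weeks and were about 5 months old. The labels do not say whether each replicate is 1 animal.

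Chemokines are small secreted proteins that bind to G protein-coupled receptors and direct the movement of leukocytes and microglia, the resident macrophages of the brain. Families are named after the spacing of the first cysteines, and most ligands are secreted, whereas Cxcl16 and Cx3cl1 are made as membrane proteins and released by the proteases Adam10 and Adam17. In mouse models of amyloid deposition, microglia around plaques are a known source of several CC chemokines, while Cx3cl1 is made mainly by neurons and is sensed by microglia through Cx3cr1.

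The deposited values were log2 intensities with array medians from 5.71 to 5.79. Microglia genes rose in both 5xFAD groups, 9 of 9 measured, and so did genes of striatal neurons, 7 of 7. All 8 hippocampal and thalamic genes fell in both. The list mean of the 7 striatal genes ran from 7.90 to 8.22 in wild type and from 9.59 to 9.81 on vehicle, and their part in the chemokine differences was not tested. Of 7 measured cortical neuron genes, 2 (Fezf2 and Slc17a7) fell on vehicle and 5 did not pass, and the list means ran from 8.98 to 9.43 over the 9 arrays. Differences between groups are given as log2 differences with the standard error (SE) of limma's moderated fit, and a gene was called at an adjusted p under 0.05.

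Of the 10 ligands, 5 rose in vehicle 5xFAD mice against wild type (Ccl3, Ccl6, Ccl9, Cxcl16 and Cxcl10), 0 fell and 5 did not pass, where 8.58% of all genes were called, 3.66% higher and 4.92% lower. Ccl3 and Ccl6 rose by far more than the others, 13.2-fold and 6.45-fold, and the remaining called members by 1.36-fold to 1.63-fold. The median difference of the 10 ligands was 0.45 log2, beside -0.01 over all genes. In amylin-treated 5xFAD mice 3 of 10 rose against the same wild-type arrays (Ccl3, Ccl6 and Ccl12), where 5.21% of all genes were called, 2.35% higher and 2.86% lower. Values of the groups did not overlap for 8 of 10 ligands on vehicle (7 higher, 1 lower), where this held for 26.8% of all genes (11.2% higher, 15.6% lower), and for 5 of 10 on amylin (all 5 higher; 23.1% of all genes, 10.8% higher and 12.3% lower). Both comparisons use the same 3 wild-type arrays.

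**Figure D1:**
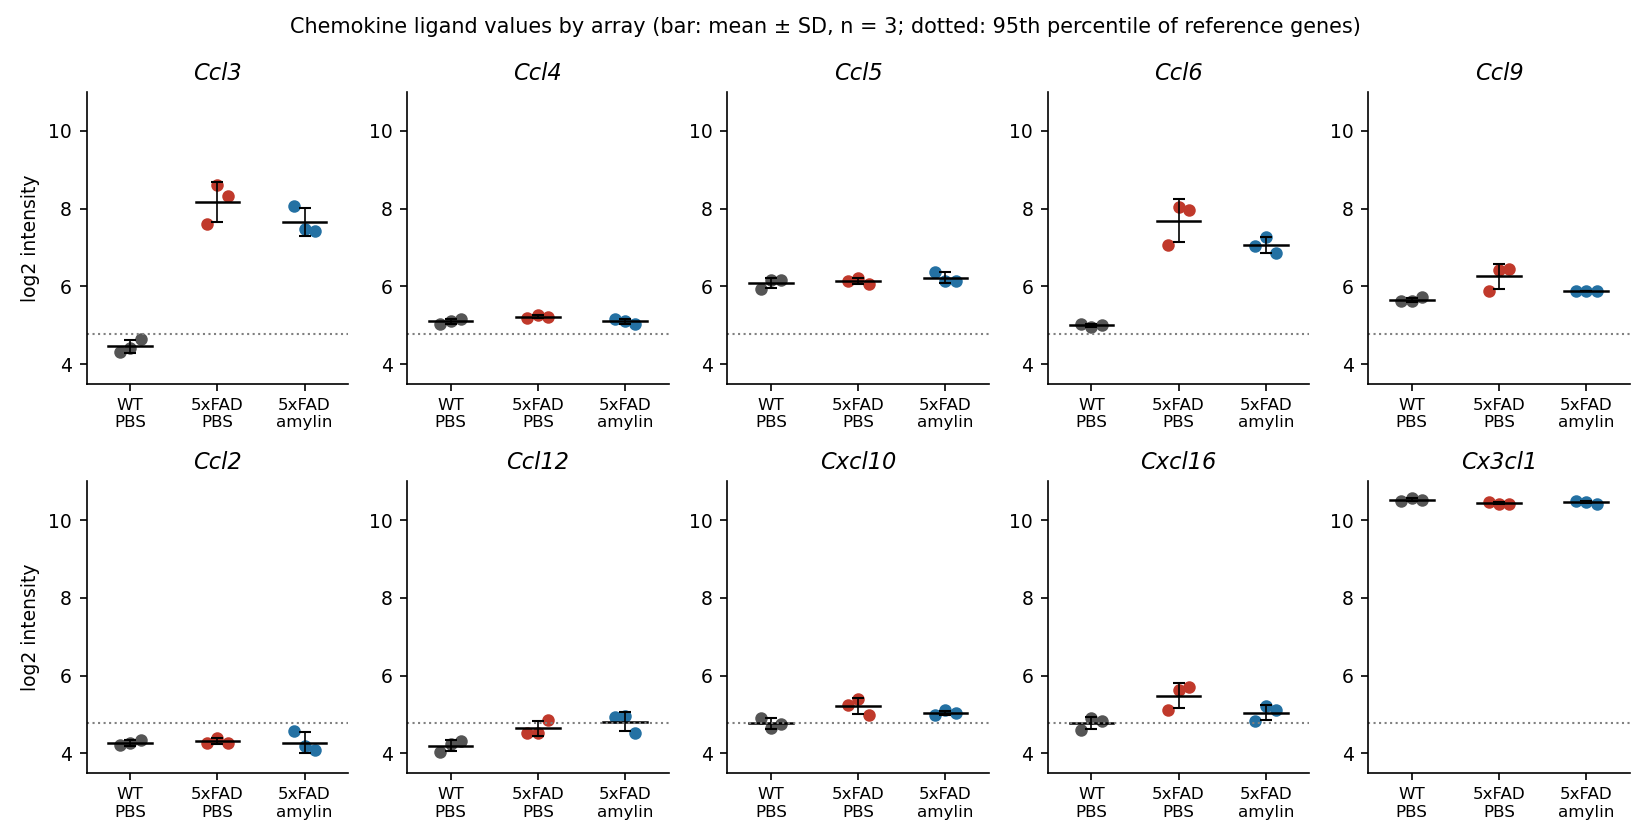
Log2 intensity (y axis) of each chemokine ligand on each of the 9 arrays, in wild-type mice on PBS, 5xFAD mice on PBS and 5xFAD mice on amylin; bars are means ± SD (n = 3) and the dotted line is the 95th percentile (4.79) of the mean levels of odorant and vomeronasal receptor genes. Ccl3 and Ccl6 lie near 5 or lower in wild type and between 6.86 and 8.60 on all 6 arrays of 5xFAD mice, while Ccl2, Ccl4, Ccl5 and Cx3cl1 stay level.

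The array gives no detection call, so levels were set beside those of 1207 genes of odorant, vomeronasal and trace amine receptors, families that most brain cells do not transcribe. Their mean log2 values had a median of 3.17, a 95th percentile of 4.79 and a 99th percentile of 5.54. Not all of them are silent or level: Olfr1174 read 7.83. On vehicle 3 of the 1207 were called higher (Olfr110, Olfr111 and Olfr1392) and 0 lower, with a largest difference of 1.75 log2. On amylin 1 was called higher (Olfr111) and 1 lower (Vmn1r174). Probe sets differ in affinity, so this describes where a reading lies and does not rank the ligands. In wild type, 3 of 10 ligands were not above the 95th percentile of these genes in the same group, namely Ccl2, Ccl3 and Ccl12. Cxcl10 and Cxcl16 lay just above it in wild type, each higher than 95.4% of the reference genes. On vehicle 2 of 10 remained at or under the 95th percentile of that group, Ccl2 and Ccl12, and on amylin 1 of 10, Ccl2. Ccl3 lay under the 95th percentile of these genes in wild type and above it in both 5xFAD groups, where 100% (vehicle) and 99.9% (amylin) of them read lower, and its fold change is relative to a reading at that background level.

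**Figure D2:**
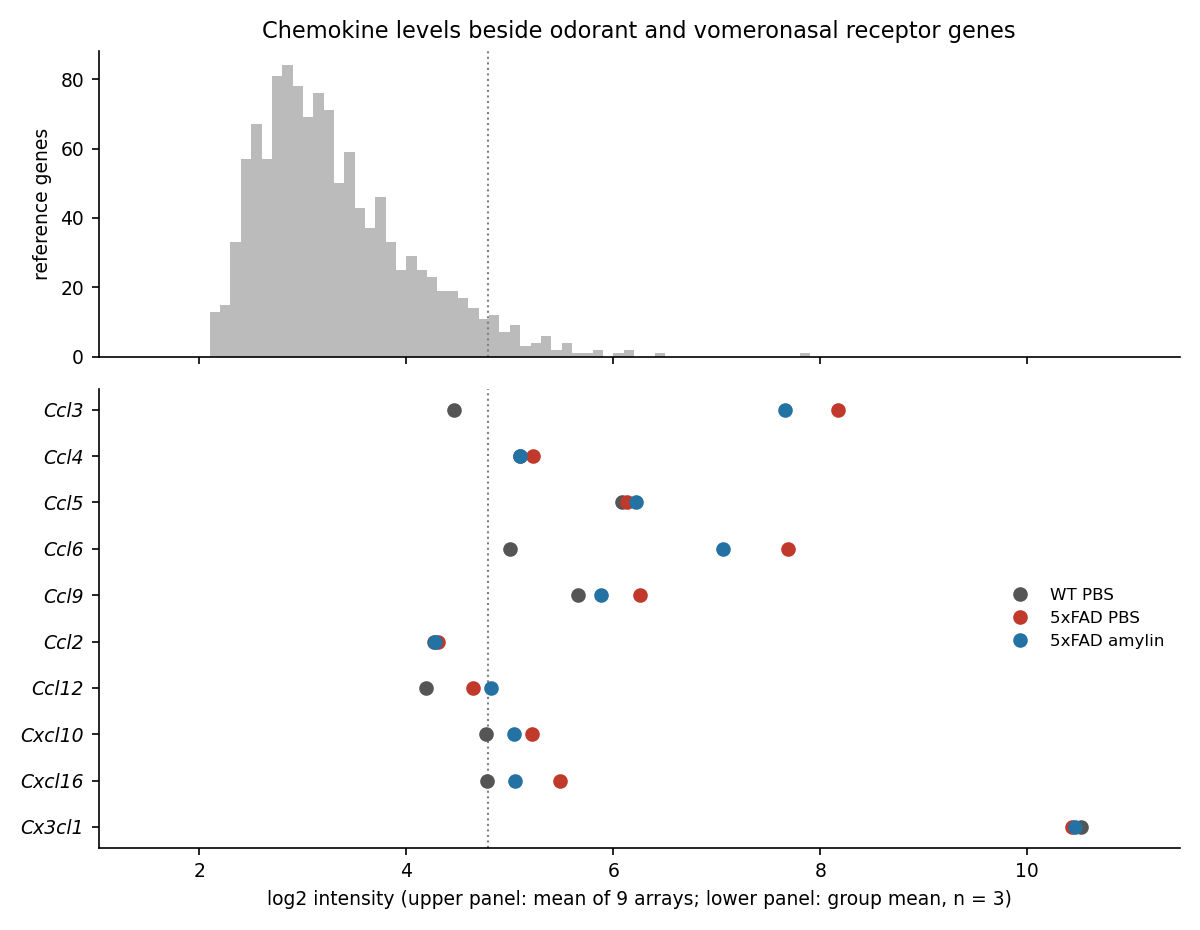
Upper panel, number of reference genes (odorant, vomeronasal and trace amine receptors; y axis) by mean log2 intensity over 9 arrays (x axis); lower panel, group means (n = 3) of the 10 ligands on the same axis, with the dotted line at the 95th percentile, 4.79. The means of Ccl2 lie left of the line in all 3 groups, between 4.27 and 4.31, and those of Ccl3 move from 4.46 in wild type to 8.17 on vehicle and 7.66 on amylin.

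Ccl3, Ccl6 and Ccl9 are ligands of the receptor Ccr1, and Ccl3 is also known as macrophage inflammatory protein 1 alpha. In the RefSeq annotation these genes follow each other on chromosome 11 in the order Ccl5, Ccl9, Ccl6, Ccl3, Ccl4, with no other protein-coding gene between them. RefSeq promoter sequences (GRCm38.p6) were matched for 6 of the 10 ligands: Ccl3, Ccl6, Ccl9, Ccl12, Cxcl10 and Cx3cl1. The 250 bases before the start of Ccl3 (chr11:83649379-83649628, minus strand) and Ccl6 (chr11:83593088-83593337, minus strand) are shown because these 2 genes had the largest differences, and those of Ccl9 (chr11:83578637-83578886, minus strand) because it lies next to them and rose much less. They are written 5′ to 3′ along the gene's strand, with matches to 4 motifs in capitals.
Ccl3: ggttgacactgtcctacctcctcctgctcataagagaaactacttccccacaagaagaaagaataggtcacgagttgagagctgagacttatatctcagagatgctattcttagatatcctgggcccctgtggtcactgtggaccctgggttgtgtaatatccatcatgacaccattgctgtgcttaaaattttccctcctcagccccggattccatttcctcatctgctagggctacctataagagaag
Ccl6: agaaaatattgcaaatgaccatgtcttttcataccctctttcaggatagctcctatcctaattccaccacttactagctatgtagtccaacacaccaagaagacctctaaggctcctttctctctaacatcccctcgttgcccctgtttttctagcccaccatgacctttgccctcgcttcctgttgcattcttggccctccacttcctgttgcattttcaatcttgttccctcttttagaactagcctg
Ccl9: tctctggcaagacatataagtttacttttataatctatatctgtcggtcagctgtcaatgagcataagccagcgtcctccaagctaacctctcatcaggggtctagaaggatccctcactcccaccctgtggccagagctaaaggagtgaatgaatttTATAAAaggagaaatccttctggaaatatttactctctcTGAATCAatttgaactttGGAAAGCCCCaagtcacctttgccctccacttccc

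The motifs searched were the NF-kB site consensus, the core of the interferon-stimulated response element (GAAA, any 2 bases, GAAA) and the AP-1 site TGANTCA, each on both strands, and the TATA box TATAAA on the gene's strand. Among 32851 RefSeq promoter windows of the same 250 bases, 7.25% held the NF-kB consensus, 2.98% the interferon element, 6.75% TGANTCA and 7.59% TATAAA. The windows of Ccl3 and Ccl6 held 0 matches to these 4 motifs. The Ccl9 window held 1 match each to the NF-kB consensus, TGANTCA and TATAAA. A match is a run of letters and not a measured site.

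Ccl3 read 4.32, 4.41 and 4.63 on the wild-type arrays, 7.60, 8.60 and 8.32 on the vehicle arrays and 8.08, 7.46 and 7.43 on the amylin arrays. All 6 arrays of 5xFAD mice lay far above all 3 of wild type, and the 5xFAD groups overlapped each other. The mean was 4.46 ± 0.16 (SD, n = 3) in wild type against 8.17 ± 0.52 (SD, n = 3) on vehicle and 7.66 ± 0.37 (SD, n = 3) on amylin. The log2 difference from wild type was 3.72 ± 0.25 (SE) on vehicle (limma adjusted p = 6.61e-05) and 3.20 ± 0.25 on amylin, or 9.19-fold (adjusted p = 0.000233). In tissue RNA, more cells of a type and more RNA per cell cannot be told apart.

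Ccl6, a CC chemokine of myeloid cells, followed the same pattern. Its values were 5.03, 4.95 and 5.01 in wild type, 7.05, 8.04 and 7.97 on vehicle and 7.04, 7.27 and 6.86 on amylin. No array of 5xFAD mice came near the wild-type values, and vehicle replicate 1 read about as low as the amylin arrays. The difference from wild type was 2.69 ± 0.22 log2 on vehicle (limma adjusted p = 0.00021) and 2.06 ± 0.22 or 4.17-fold on amylin (adjusted p = 0.00118). Both Ccl3 and Ccl6 were called higher against wild type under all 18 alternatives tried in each comparison.

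Ccl9, the next gene along the chromosome and likewise a myeloid Ccr1 ligand, moved much less. It read 5.62, 5.63 and 5.72 in wild type and 5.89, 6.42 and 6.46 on vehicle. It read 5.88 on all 3 amylin arrays. Both 5xFAD groups lay above wild type without overlap, with vehicle replicate 1 close to the amylin arrays. The difference was 0.60 ± 0.13 log2 on vehicle (limma adjusted p = 0.0192) and 0.23 ± 0.13 on amylin, which did not pass (adjusted p = 0.389). On vehicle Ccl9 did not pass when any 1 wild-type array was left out (adjusted p = 0.0791, 0.0645 and 0.0536 for replicates 1, 2 and 3), when vehicle replicate 2 (0.0702) or 3 (0.0714) was, or with only the 2 groups fitted (0.0633). On amylin Ccl9 passed with only the 2 groups fitted (0.0478) and without vehicle replicate 1 (0.0306).

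Ccl4 and Ccl5 flank these genes. Ccl4, macrophage inflammatory protein 1 beta, read 5.02, 5.12 and 5.16 in wild type, 5.19, 5.26 and 5.21 on vehicle and 5.17, 5.10 and 5.03 on amylin. The vehicle arrays lay just above wild type and the amylin arrays among them. The difference was 0.12 ± 0.056 log2 on vehicle (95% interval from -0.0037 to 0.25, limma adjusted p = 0.252) and 0.0013 ± 0.056 on amylin (adjusted p = 0.998). The upper end of the vehicle interval for Ccl4 is far below the lower end for its neighbour Ccl3, 3.16. The group means of Ccl4, 5.10 to 5.22, lay under the 99th percentile of the reference genes, 5.54, so a change could be missed. The intervals of Ccl3 and Ccl4 come from probe sets that can differ in affinity, so they do not show that Ccl4 RNA stayed level. The annotated spans of Ccl3 and Ccl4 overlap, and whether their probes cover shared sequence was not examined here. Ccl5, also called RANTES and best known from T cells, ranged from 5.94 to 6.17 in wild type, 6.05 to 6.21 on vehicle and 6.14 to 6.38 on amylin. Its groups overlapped, with differences from wild type of 0.042 ± 0.087 (95% interval from -0.15 to 0.24, adjusted p = 0.87) on vehicle and 0.13 ± 0.087 on amylin (adjusted p = 0.471).

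**Figure D3:**
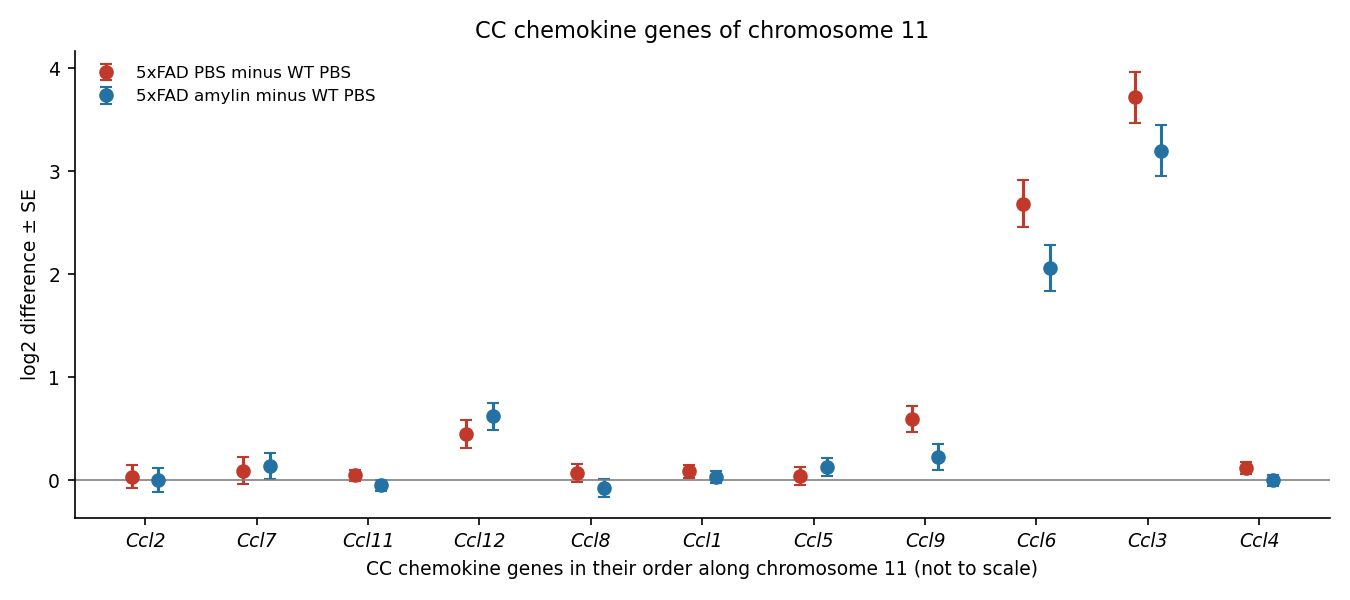
Log2 difference from wild type ± SE (y axis) of 11 CC chemokine genes in their order along chromosome 11 (x axis, not to scale), for 5xFAD mice on PBS and on amylin; both use the same wild-type arrays. Ccl6 and Ccl3, which are adjacent, lie at 2.69 and 3.72 on vehicle, and the next gene, Ccl4, lies at 0.12.

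Ccr1, the receptor shared by Ccl3, Ccl6 and Ccl9, read 3.12 to 3.39 over all 9 arrays, near the median of the reference genes, so the array cannot show whether it changed. It differed by 0.077 ± 0.078 log2 on vehicle (adjusted p = 0.668) and by 0.038 ± 0.078 on amylin (adjusted p = 0.849).

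Ccl2 and Ccl12 are the monocyte-attracting ligands of Ccr2, and Ccl12 is a mouse relative of Ccl2. Ccl2 read 4.20, 4.26 and 4.35 in wild type, 4.26, 4.40 and 4.26 on vehicle and 4.58, 4.18 and 4.07 on amylin. All groups overlapped at a level within the range of the reference genes. The difference was 0.038 ± 0.11 log2 on vehicle (95% interval from -0.22 to 0.30, limma adjusted p = 0.916) and 0.0052 ± 0.11 on amylin (adjusted p = 0.992). At such a level the array cannot show whether Ccl2 was transcribed.

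Ccl12 read 4.04, 4.23 and 4.31 in wild type, 4.53, 4.53 and 4.86 on vehicle and 4.95, 4.96 and 4.53 on amylin. Every array of 5xFAD mice lay above every wild-type array, in a range where 87.2% to 95.4% of the reference genes read lower than the group means. The difference was 0.62 ± 0.13 log2 or 1.54-fold on amylin (limma adjusted p = 0.0273) and 0.45 ± 0.13 on vehicle, which did not pass (adjusted p = 0.0722). The amylin and vehicle groups differed by 0.17 ± 0.13 (adjusted p = 0.823), so the call in 1 group and not in the other is no difference between them. On amylin Ccl12 did not pass when wild-type replicate 1 (adjusted p = 0.124), 2 (0.0785) or 3 (0.0568) or amylin replicate 1 (0.0804) or 2 (0.0803) was left out, or with only the 2 groups fitted (0.0526). On vehicle Ccl12 passed without amylin replicate 3 (0.0345) and with array weights (0.0293). Their receptor Ccr2, also a marker of blood monocytes, read 2.81 to 3.01 over all 9 arrays, under the median of the reference genes, and differed by 0.015 ± 0.068 on vehicle (adjusted p = 0.949).

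Cxcl10, which is induced by interferons and attracts T cells through Cxcr3, rose slightly on vehicle. Its 250 promoter bases (chr5:92348890-92349139, minus strand) are shown because, unlike those of Ccl3 and Ccl6, they hold matches to 3 of the 4 motifs, again in capitals.
Cxcl10: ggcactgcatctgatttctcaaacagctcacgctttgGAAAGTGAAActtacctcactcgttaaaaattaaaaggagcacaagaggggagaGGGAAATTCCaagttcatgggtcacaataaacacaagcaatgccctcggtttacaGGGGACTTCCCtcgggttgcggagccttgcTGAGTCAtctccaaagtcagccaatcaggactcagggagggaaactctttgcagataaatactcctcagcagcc

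The Cxcl10 window held 1 match to the interferon element, 3 matches to the NF-kB consensus, of which 2 overlap in the run GGGGACTTCCC, and 1 match to TGANTCA. It held 0 matches to TATAAA. The windows of Ccl12 and Cx3cl1, which are not shown, each held 1 match to TATAAA and 0 to the other motifs. Cxcl10 read 4.92, 4.64 and 4.75 in wild type, 5.26, 5.40 and 4.99 on vehicle and 4.99, 5.11 and 5.03 on amylin. Both 5xFAD groups lay above wild type without overlap, but vehicle replicate 3 and amylin replicate 1 were only just above the highest wild-type array. The difference was 0.44 ± 0.10 log2 or 1.36-fold on vehicle (limma adjusted p = 0.0286) and 0.27 ± 0.10 on amylin (adjusted p = 0.185). Cxcl10 did not pass on vehicle when wild-type replicate 2 (adjusted p = 0.101) or 3 (0.0928) or vehicle replicate 1 (0.0845) or 2 (0.0869) was left out, or with only the 2 groups fitted (0.0732). Cxcr3 differed by 0.061 ± 0.072 on vehicle (adjusted p = 0.727).

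Cxcl16, a membrane-bound chemokine and scavenger receptor for oxidised lipoprotein, read 4.60, 4.90 and 4.82 in wild type, 5.11, 5.62 and 5.71 on vehicle and 4.83, 5.22 and 5.10 on amylin. The vehicle arrays lay above wild type, while the amylin arrays overlapped both groups. The difference was 0.71 ± 0.16 log2 or 1.63-fold on vehicle (limma adjusted p = 0.0245) and 0.28 ± 0.16 on amylin (adjusted p = 0.402). Cxcl16 did not pass on vehicle when wild-type replicate 1 (adjusted p = 0.108) or 3 (0.0692) or vehicle replicate 2 (0.088) or 3 (0.092) was left out, or with only the 2 groups fitted (0.0517). Its receptor Cxcr6 read 3.71 to 3.90 over all 9 arrays, within the range of the reference genes, and differed by 0.027 ± 0.057 on vehicle (adjusted p = 0.872).

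Cx3cl1, or fractalkine, read 10.49, 10.56 and 10.51 in wild type, 10.46, 10.42 and 10.42 on vehicle and 10.49, 10.48 and 10.43 on amylin. The vehicle values were all lower than the wild-type ones, by a small margin. The difference was -0.089 ± 0.045 log2 (95% interval from -0.19 to 0.013, limma adjusted p = 0.313) on vehicle and -0.056 ± 0.045 on amylin (adjusted p = 0.568). Among 8 neuron markers 2 fell on vehicle (Snap25 and Nefl), and the list means ran from 11.13 to 11.14 in wild type, 10.99 to 11.03 on vehicle and 11.03 to 11.09 on amylin; their part in the Cx3cl1 values was not tested. Its receptor Cx3cr1 rose, from 7.50, 7.64 and 7.57 in wild type to 8.18, 8.66 and 8.76 on vehicle and 8.39, 8.54 and 8.18 on amylin. No array of 5xFAD mice overlapped wild type. The Cx3cr1 difference was 0.96 ± 0.14 log2 on vehicle (adjusted p = 0.00377) and 0.80 ± 0.14 on amylin (adjusted p = 0.013; 0.0677 without wild-type replicate 1). The protease Adam17, which sheds both membrane chemokines, rose by 0.31 ± 0.06 log2 on vehicle (adjusted p = 0.0154) and differed by 0.19 ± 0.06 on amylin (adjusted p = 0.135). Adam17 did not pass on vehicle when wild-type replicate 2 (0.0595) or 3 (0.0555) or vehicle replicate 3 (0.0548) was left out. Adam10 differed by 0.10 ± 0.05 on vehicle (adjusted p = 0.338) and 0.18 ± 0.05 on amylin (adjusted p = 0.0987).

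**Figure D4:**
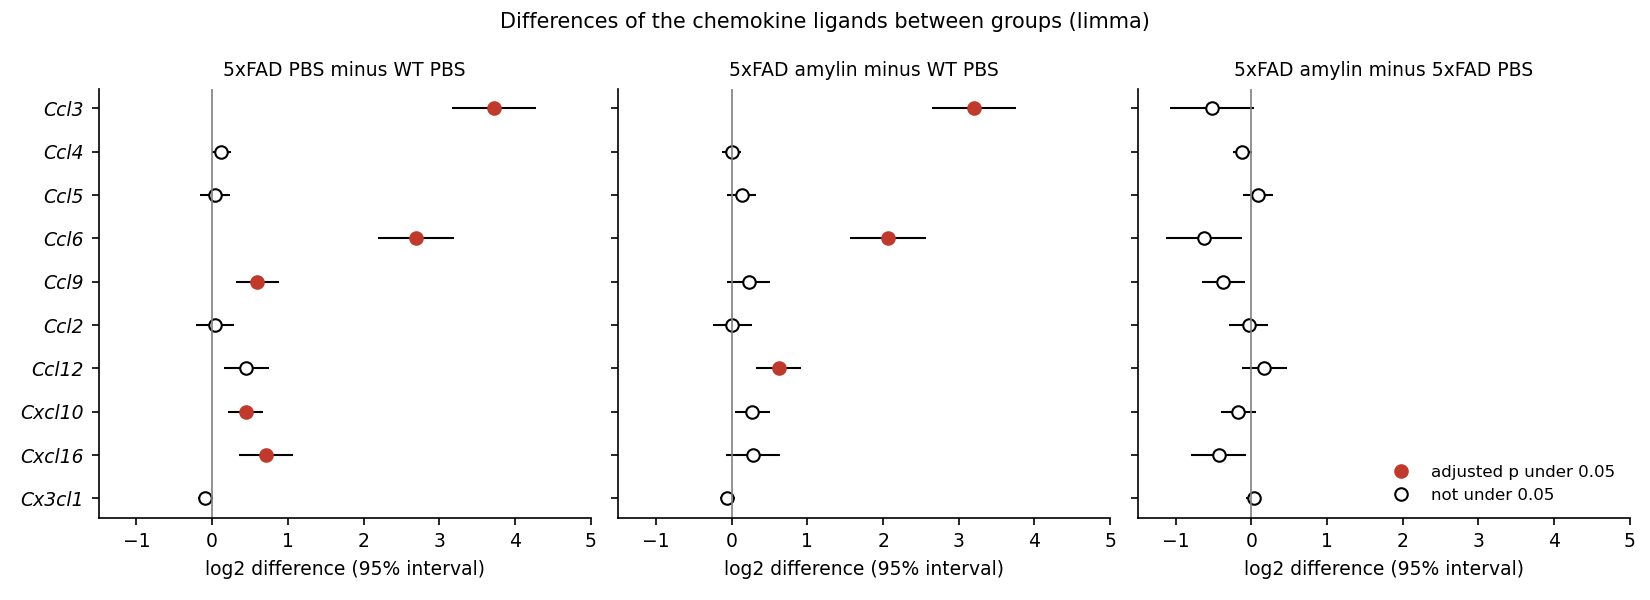
Log2 differences with 95% intervals (x axis) of the 10 ligands (y axis) in the 3 comparisons; filled points have a limma adjusted p under 0.05. On vehicle 5 ligands are called and on amylin 3, all to the right of 0, and in amylin against vehicle 0 are called.

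Amylin against vehicle within 5xFAD mice gave 0 of 10 ligands past the limma threshold, where 0.00502% of all genes (1 of 19938) were called; 3 of 10 had an unadjusted p under 0.05, all lower, as did 6.9% of all genes (3.18% lower). The mean was lower on amylin for 7 ligands and higher for 3, and the median difference was -0.15 log2, beside 0.00064 over all genes. Lower means on amylin were not particular to these ligands. They were also found for 9 of 9 microglia markers, 18 of 26 other chemokine ligands and 14 of 17 signalling chemokine receptors. The medians of these lists were -0.25, -0.06 and -0.05 log2. Values of the groups did not overlap for 2 of 10 ligands, Ccl4 and Ccl9, both lower on amylin, where this held for 9.3% of all genes, 5.49% higher and 3.81% lower. The margins were very small: the highest amylin and lowest vehicle values were 5.17 and 5.19 for Ccl4 and 5.884 and 5.887 for Ccl9. Ccl6 differed by -0.63 ± 0.22 log2 (95% interval from -1.13 to -0.13, adjusted p = 0.687), Ccl3 by -0.52 ± 0.25 (from -1.07 to 0.04, adjusted p = 0.737), Cxcl16 by -0.43 ± 0.16 (from -0.79 to -0.08, adjusted p = 0.691) and Ccl9 by -0.37 ± 0.13 (from -0.66 to -0.09, adjusted p = 0.675). These intervals are unadjusted for the number of genes. Without vehicle replicate 1, Ccl6 (-0.95, adjusted p = 0.0452) and Ccl9 (-0.56, adjusted p = 0.0247) passed. How many of all genes passed in that fit is not given here. This comparison shares the vehicle arrays with that of vehicle and wild type, so high vehicle readings enlarge a difference in both.

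Microglia genes rose in the same comparisons as Ccl3 and Ccl6. The mean of 9 microglia markers ran from 6.90 to 6.93 in wild type, 7.75 to 8.25 on vehicle and 7.64 to 7.92 on amylin, with vehicle replicate 1 the lowest of its group, as for Ccl3, Ccl6, Ccl9 and Cxcl16. Single markers rose by 0.45 to 1.55 log2 on vehicle, with a median of 1.11. The differences of Ccl3 and Ccl6 on vehicle were larger than that of any of these markers, by 2.62 and 1.59 more than the list mean. Those of Ccl9, Cxcl10, Cxcl16 and Ccl12 were smaller, at -0.50, -0.65, -0.39 and -0.65 relative to the list mean. In wild type Cxcl10, Cxcl16 and Ccl12 read 4.77, 4.77 and 4.19, close to or under the 95th percentile of the reference genes (4.73). Near that level a reading can understate a change, so these values do not show that their RNA rose less. Ccl2, Ccl4, Ccl5 and Cx3cl1, which were not called, lay at -1.06, -0.97, -1.05 and -1.18 relative to the list mean. As their own differences were small, these values mainly restate the rise of the list. The part of the microglia markers in the ligand differences was not tested.

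**Figure D5:**
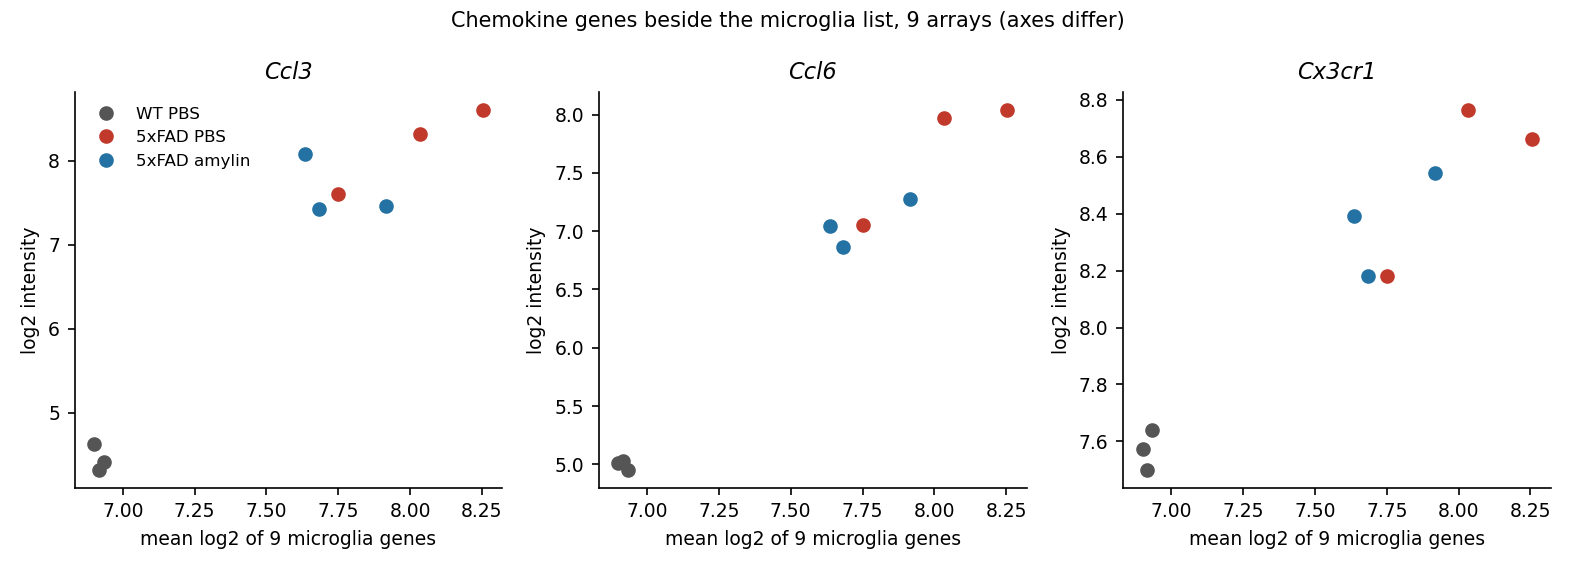
Log2 intensity of Ccl3, Ccl6 and Cx3cr1 (y axes, which differ) against the mean log2 intensity of 9 microglia genes (x axis) on each of the 9 arrays, coloured by group. The 3 wild-type arrays lie together at 6.90 to 6.93 on the x axis, apart from the 6 arrays of 5xFAD mice at 7.64 to 8.25.

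Markers of other cells that make or answer to chemokines were examined in the same way; over all genes, 21.2% had an unadjusted p under 0.05 on vehicle and 19.2% on amylin. Of 7 measured monocyte and neutrophil genes limma called 0 against wild type on vehicle or amylin (0 and 1 at an unadjusted p under 0.05), and their list means ran from 3.87 to 4.07 over all arrays. Of 10 T, NK and B cell genes 0 were called (0 and 0 unadjusted), with list means from 3.93 to 4.13. The means of both lists lay under the 95th percentile of single reference genes, 4.79. Of these markers S100a9, Camp, Cd3e and Cd8a read above it on all 9 arrays, with lowest values of 5.38, 4.81, 4.83 and 4.81. With most markers under that level, the lack of calls does not show whether these cells were present or changed in number. Of 6 genes of perivascular and meningeal macrophages 0 were called (2 and 3 unadjusted, all higher), with list means from 4.94 to 4.98 in wild type and from 5.05 to 5.21 in 5xFAD mice, so every 5xFAD array was higher. Of 8 astrocyte genes 1, the intermediate filament gene Gfap, rose in both 5xFAD groups, and Fgfr3 and Aldoc fell on vehicle. Of 7 endothelial genes 1, the transporter gene Slco1a4, rose in both, while 6 had an unadjusted p under 0.05 on vehicle, all higher. The endothelial list means ran from 6.77 to 6.94 in wild type and from 7.02 to 7.19 in 5xFAD mice. The part of the macrophage, astrocyte and endothelial markers in the ligand differences was not tested.

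Among 26 other chemokine ligands measured, 1 rose on vehicle, 0 fell and 25 did not pass, and 0 passed limma's threshold on amylin (2 at an unadjusted p under 0.05). The 1 was Cxcl5, a ligand of Cxcr2 that attracts neutrophils. It read 3.63, 3.64 and 3.78 in wild type, 4.53, 5.63 and 5.53 on vehicle and 4.43, 4.43 and 4.45 on amylin. The 3 groups did not overlap at all, with amylin between the other two. The wild-type and amylin values lay under the 95th percentile of the reference genes in their groups (4.73 and 4.75), so the differences are relative to readings at that background level. The difference from wild type was 1.55 ± 0.23 log2 on vehicle (limma adjusted p = 0.00393) and 0.75 ± 0.23 on amylin (adjusted p = 0.104; 0.00141 with only the 2 groups fitted and 0.000313 without vehicle replicate 1). Amylin against vehicle gave -0.79 ± 0.23 (adjusted p = 0.662), and without vehicle replicate 1 it gave -1.14 (adjusted p = 0.00109). The median difference of these 26 ligands was 0.06 log2 on vehicle.

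Of 17 signalling chemokine receptors, Cx3cr1 was the 1 that was called, on vehicle and on amylin, and the median of the 17 was 0.05 on vehicle. Of 5 atypical receptors 1 rose on vehicle, Ccrl2, which binds chemerin and does not signal, by 0.56 ± 0.08 log2 (adjusted p = 0.00233); on amylin it differed by 0.22 ± 0.08 (adjusted p = 0.152). Of 11 measured NF-kB subunits, inhibitors and kinase subunits (Ikbkb and Ikbkg) 0 were called by limma in any comparison (1 on vehicle and 1 on amylin against wild type, and 0 between them, at an unadjusted p under 0.05). Of 10 genes through which interferons act upstream of Cxcl10, 4 rose in both 5xFAD groups: the transcription factors Irf8 and Irf9 and the receptor chains Ifngr1 and Ifnar2. The mean was lower than in wild type for 4 of the 10 in each comparison, and 0 were called lower (1 in each at an unadjusted p under 0.05). Ifngr2, the partner chain of Ifngr1, read lower on all 6 arrays of 5xFAD mice (at most 9.32) than on the wild-type arrays (9.37 to 9.42); it was singled out after its values were seen and did not pass, with -0.15 ± 0.074 log2 on vehicle (adjusted p = 0.282) and -0.27 ± 0.074 on amylin (adjusted p = 0.0687). Irf8, which is also a lineage factor of microglia, rose by 0.80 ± 0.10 on vehicle (adjusted p = 0.00139) and 0.59 ± 0.10 on amylin (adjusted p = 0.00931). Irf9 rose by 0.44 ± 0.08 on vehicle (adjusted p = 0.0121). On amylin Irf9 and Ifngr1 rose by 0.36 and 0.37 and were not called without any 1 of the 3 wild-type arrays (adjusted p = 0.0642 to 0.127). Nor was Irf9 without any 1 of the amylin arrays (0.0637 to 0.101) or without vehicle replicate 3 (0.0608), or Ifngr1 without amylin replicate 2 (0.0631) or 3 (0.0635). Ifnar2 rose by 0.40 on amylin and was not called without wild-type replicate 1 (adjusted p = 0.0545).

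The genes whose values followed those of Ccl3 most closely over the 9 arrays were C3ar1, a receptor for a complement fragment (Pearson r = 0.992), Hs3st2 (0.991), Cd84, the lysosomal protease Ctss and the protease inhibitor Cst7 (0.989 each). For Cxcl10 they were Ddah1 (0.954), Nup205 (0.952), Scpep1 (0.951), Slc50a1 (0.947) and Tgs1 (0.943). For Cx3cl1 they were Fcrl6 (0.966), the G protein subunit gene Gnaq (0.943), Gcn1 (0.94), Sbspon (0.939) and Pcnx (0.932). The 9 points form 3 groups, so any pair of genes that differ between wild type and 5xFAD mice correlates, and the coefficients are descriptions of these arrays. Among the ligands, Ccl3 and Ccl6 correlated at 0.98 and Ccl9 and Cxcl16 at 0.94 over the same 9 arrays.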

How the data were processed

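Total RNA of 9 mouse brain samples was measured on 1 Affymetrix array each. The deposited values are log2 intensities of 35556 probe sets, made by the authors with RMA in the R package oligo, per the submitters' processing notes; RMA corrects background, equalises the quantiles of the arrays and summarises probes. Versions and genome build are not given in the sources used here. Of the probe sets, 21789 name 1 gene symbol; for genes with several, that with the highest mean over the 9 arrays was used, which left 19938 genes.

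A linear model with 3 group means was fitted to all 9 arrays in limma 3.58.1 (R 4.3.3), its variances moderated by a constant prior (3.53 degrees of freedom, beside 6 residual ones), with Benjamini-Hochberg adjustment over all genes, without a filter or minimum fold. The number of arrays limits the precision; the median SE of a difference between vehicle and wild type was 0.07 log2. The fit was tested on simulated data. Named genes are the 10 ligands, called genes of the pathway and marker lists, a receptor or protease of each ligand, and the 5 genes most correlated with Ccl3, Cxcl10 and Cx3cl1. The ligands and lists were chosen with earlier results of these data known. Promoters are from RefSeq (GRCm38.p6).

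Alternatives were repeated quantile normalization, median centring, leaving out the lowest 25% or 50% of genes, a trended robust prior, 2-group fits, weighting of arrays, a replicate block, the mean of all probe sets, a 1.5-fold minimum, adjusted p under 0.1, and leaving out each array.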

Additional observations from a re-analysis of the deposited data

How the results depend on the processing

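The number of ligands called on vehicle against wild type, 5 of 10, was 2 with only the 2 groups fitted and 2 with the lowest 50% of genes left out, a filter that only 3 ligands (Ccl3, Ccl6 and Cx3cl1) passed. Leaving out 1 array at a time gave 2 to 6 on vehicle, 2 to 4 on amylin (3 with all arrays) and, for amylin against vehicle, 0 to 2 (0 with all arrays). The share of all genes called in each of these fits is not given here, so these counts are not read as a result about the ligands. The lowest 25% filter removed Ccl2 and Ccl12. Of 513 ligand values under an alternative, 472 kept their direction and side of the threshold, 22 lost the threshold, 6 passed it and 13 changed sign. The gene filters, the trended robust prior, the 2-group fits, the replicate block and the mean of all probe sets leave a ligand's difference unchanged. Leaving out an array of the group not compared does so too. Under these alternatives only the side of the threshold could change, so a kept direction carries no information. The sign changes concern differences that did not pass: Ccl2, Ccl4 and Ccl5 against wild type, and Ccl2 and Cx3cl1 in amylin against vehicle. With array weights Ccl5 on vehicle became -3.3e-05, and Ccl2 and Ccl4 on amylin became -0.073 and -0.018; with quantile normalization repeated, Cx3cl1 in amylin against vehicle became -0.00092. Leaving out 1 array at a time, the differences against wild type ran from -0.0079 to 0.076 (Ccl2) and -0.034 to 0.080 (Ccl5) on vehicle and from -0.15 to 0.11 (Ccl2) and -0.036 to 0.035 (Ccl4) on amylin; amylin against vehicle ran from -0.18 to 0.068 for Ccl2, and, for Irf9 and Ifngr1, whose alternatives were added after seeing the data, from -0.14 to 0.015 and from -0.13 to 0.0016. The replicate number as a block gave 5, 3 and 0 called ligands, as without it. Same-numbered arrays correlated at -0.06 to 0.18 in their deviations from the group means, so the numbers were not taken to pair the samples. The causes of these changes were not tested. Some alternatives leave fewer genes or arrays, and the part of this was not tested either. With 3 arrays a group and readings near the reference genes, small changes of Ccl2, Ccl4, Ccl12, Cxcl10 and Cxcl16 are at the limit of what the arrays can show.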

Other observations

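Cxcl13, which attracts B cells through Cxcr5, was singled out after its values were seen. It read 3.83, 3.90 and 3.94 in wild type, 4.48, 5.90 and 4.15 on vehicle and 3.63, 4.02 and 3.74 on amylin. Vehicle replicate 2 stood apart from the other 8 arrays, and the wild-type and amylin values lay within the range of the reference genes. The difference on vehicle was 0.95 ± 0.36 (SE) on the log2 scale and did not pass (limma adjusted p = 0.158), and Cxcr5 differed by 0.091 ± 0.077 (adjusted p = 0.591).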
